A study of Capra hircus with 21 samples.

Results

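Cytosolic ribosomal proteins are the protein subunits of the ribosomes that translate nuclear-encoded mRNA. Their genes were taken as the rows whose symbol begins with RPL or RPS and a digit, or is RPSA, without the RPS6K kinases, which are 8 rows. This gave 31 of the 19040 genes in the table, 10 with an RPL symbol (large subunit) and 21 with an RPS symbol (small subunit). The row RPS19BP1 encodes a nucleolar partner of RPS19 and no subunit of the ribosome, so 30 rows encode ribosomal proteins. Of the 80 proteins of the standard mammalian ribosome, 27 stood among these rows and 4 more (RPLP0, RPLP2 and RACK1 among them) under other symbols. The remaining proteins were not analysed here.

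RNA-seq was made from goat (Capra hircus) oocytes that matured inside the animal and from 2-cell, 4-cell, 8-cell and 16-cell embryos, morulae and blastocysts that developed there. Each stage had 3 libraries, lettered A, B and C, and values below are given in that order. The labels give no breed, age or treatment, and do not say how many oocytes or embryos a library held or whether those of a stage had different mothers. What the p-values measure is thus the spread of these libraries alone, which may be technical. Values are RPKM, reads scaled to the depth of the library and to the length of the gene, here the whole span of a gene, introns included, so levels set beside each other between genes are per length of that span, and shares of reads carry no correction for length. For morula A the labels state that the file of reverse reads was damaged and left out, and leave unsaid whether its values rest on forward reads alone.

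A ribosome holds a small subunit that reads the mRNA and a large subunit that joins the amino acids, and each contains a single copy of nearly every ribosomal protein. The oocyte builds a store of ribosomes while it grows, and the cleaving embryo lives on that store until its own genome is transcribed. Ribosomal protein mRNAs carry a pyrimidine tract at their 5′ end through which growth signals control their translation, and many mammalian ribosomal protein genes have near-identical copies elsewhere in the genome. In ruminants the embryonic genome is activated in full later than in the mouse, after several cleavages.

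Between 8.47 M (morula B) and 26.7 M (2-cell C) reads were counted in the table's genes. Libraries 16-cell C and morula C stood nearer to the preceding stage than the other libraries of their stage, with first principal component scores of 7.6 and 37.3 against 35.8 to 40.5 and 72.3 to 74.3. Counts of members at the steps that involve them, and the named calls that change, are also given without them. The 7 oocyte markers found of 8 (GDF9, BMP15, ZP4 and others) summed to 567 to 1096 RPKM in oocytes, 5.57 to 131 in morulae and 0.981 to 6.09 in blastocysts. The 6 trophectoderm markers summed to 0.56 to 1.1 RPKM in oocytes and 94.3 to 165 in blastocysts, nearly all of it from the keratin KRT8 (mean 114), while CDX2 had 0.197 and GATA3 1.14 there. TFAP2C, also on that list, went from 1.14 RPKM in morulae to 0.333 in blastocysts. The 4 inner cell mass markers summed to 4.59 to 6.83 RPKM in morulae and 3.26 to 3.6 in blastocysts. The 4 markers of the embryo after genome activation summed to 10.3 to 12.8 RPKM in 8-cell and 164 to 346 in 16-cell embryos. Their sum was 178 to 285 in morulae and 13.9 to 57.4 in blastocysts. Markers of other cells that such samples could carry were low. The 6 cumulus or granulosa markers found of 8 reached at most 1.85 RPKM in sum, the 5 oviduct or uterine of 8 at most 1.91, the 5 leukocyte of 6 at most 0.573, the 1 blood marker of 5 at most 0.0267 and the 2 sperm markers of 5 at most 0.164. The 4 stroma markers found of 5 summed to 3.45 to 4.69 RPKM in oocytes, 3.15 to 7.96 in 2-cell, 2.53 to 2.91 in 8-cell and 1.32 to 3.34 in 16-cell embryos, 0.0311 to 1.94 in morulae and 0.0465 to 0.0878 in blastocysts. Among the single markers, the granulosa receptor FSHR had a stage mean of at most 0.0116 RPKM and the oestrogen receptor ESR1 of at most 0.0101, where 0.01 RPKM is the lowest value of the table. TNFAIP6, a cumulus marker, went from 0.285 RPKM (8-cell) to 1.12 (16-cell), at the step where most members rose, and SPP1, on the oviduct list, was highest in oocytes (1.16). The part of these markers in the results below was not tested.

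The 31 genes took up a small part of the oocyte's reads, a smaller part at the 8-cell stage, and a much larger part from the 16-cell stage on. Their share of the reads in listed genes was 0.431 ± 0.0669% in oocytes, 0.298 ± 0.0252% in 2-cell, 0.356 ± 0.0698% in 4-cell and 0.222 ± 0.0357% in 8-cell embryos (mean ± SD, n = 3 libraries here and throughout). It then stood at 0.86 ± 0.103% in 16-cell embryos, 2.73 ± 0.753% in morulae and 2.14 ± 0.248% in blastocysts. The 3 libraries of the 16-cell stage (0.757 to 0.963%) lay above all 12 earlier libraries (0.186 to 0.504%) and below all 6 later ones (1.88 to 3.32%). Morula C, at 1.88%, held the smallest share of the late libraries, against 3.32 and 2.98% in morula A and B, and 16-cell A and B held 0.859 and 0.963%. Reads of the mitochondrial genome moved with the stages too, from 1.74 ± 1.5% of gene reads in oocytes to 3.37 ± 1.31% in 8-cell embryos. They made up 10.2 ± 3.17% in 16-cell embryos, 8.92 ± 5.31% in morulae and 36.8 ± 7.96% in blastocysts. As a share of nuclear gene reads the 31 genes therefore stood at 3.02 ± 0.945% in morulae and 3.4 ± 0.128% in blastocysts. These are shares of a library, so more ribosomal protein mRNA per embryo cannot be told apart from less of other RNA, nor fewer cells from less RNA per cell.

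**Figure D1:**
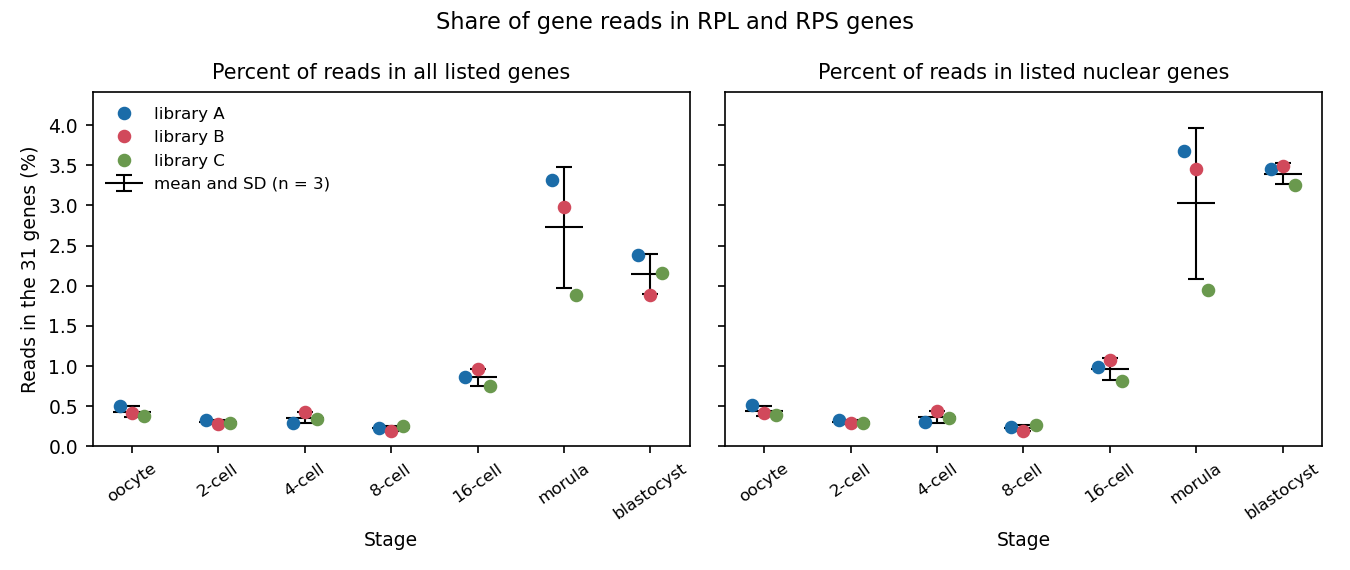
Share of reads in the 31 RPL and RPS genes (y axis, percent) in each of the 21 libraries by stage (x axis), of all listed genes on the left and of listed nuclear genes on the right; points are libraries, bars the mean and SD of 3. The share is lowest at the 8-cell stage (0.186 to 0.257% of listed genes), and the morula and blastocyst means differ less on the right, 3.02 and 3.4%.

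Reads were spread unevenly over the members in oocytes. RPS13, a small-subunit protein, and RPL26L1, a paralog of the large-subunit protein RPL26, together held, without a correction for length, 46.3 ± 2.47% of the reads of the 31 genes in oocytes, 29 ± 1.5% at the 8-cell stage, 15.8 ± 2.74% at the 16-cell stage and 8.98 ± 0.56% in blastocysts. This pair was picked after its values were seen. RPS21, also of the small subunit, had 3 to 11 reads in an oocyte library. By stage mean, 15 of the 30 ribosomal protein genes (RPL10L included, RPS19BP1 not) were lowest at the 8-cell stage, 8 in oocytes, 6 in 2-cell and 1 in 4-cell embryos. Highest means fell in morulae for 24 and in blastocysts for 6 (RPL37, RPS18, RPS21, RPS28, RPS29 and RPS4X), an order that depends on how libraries are scaled, as given with the blastocyst below.

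**Figure D2:**
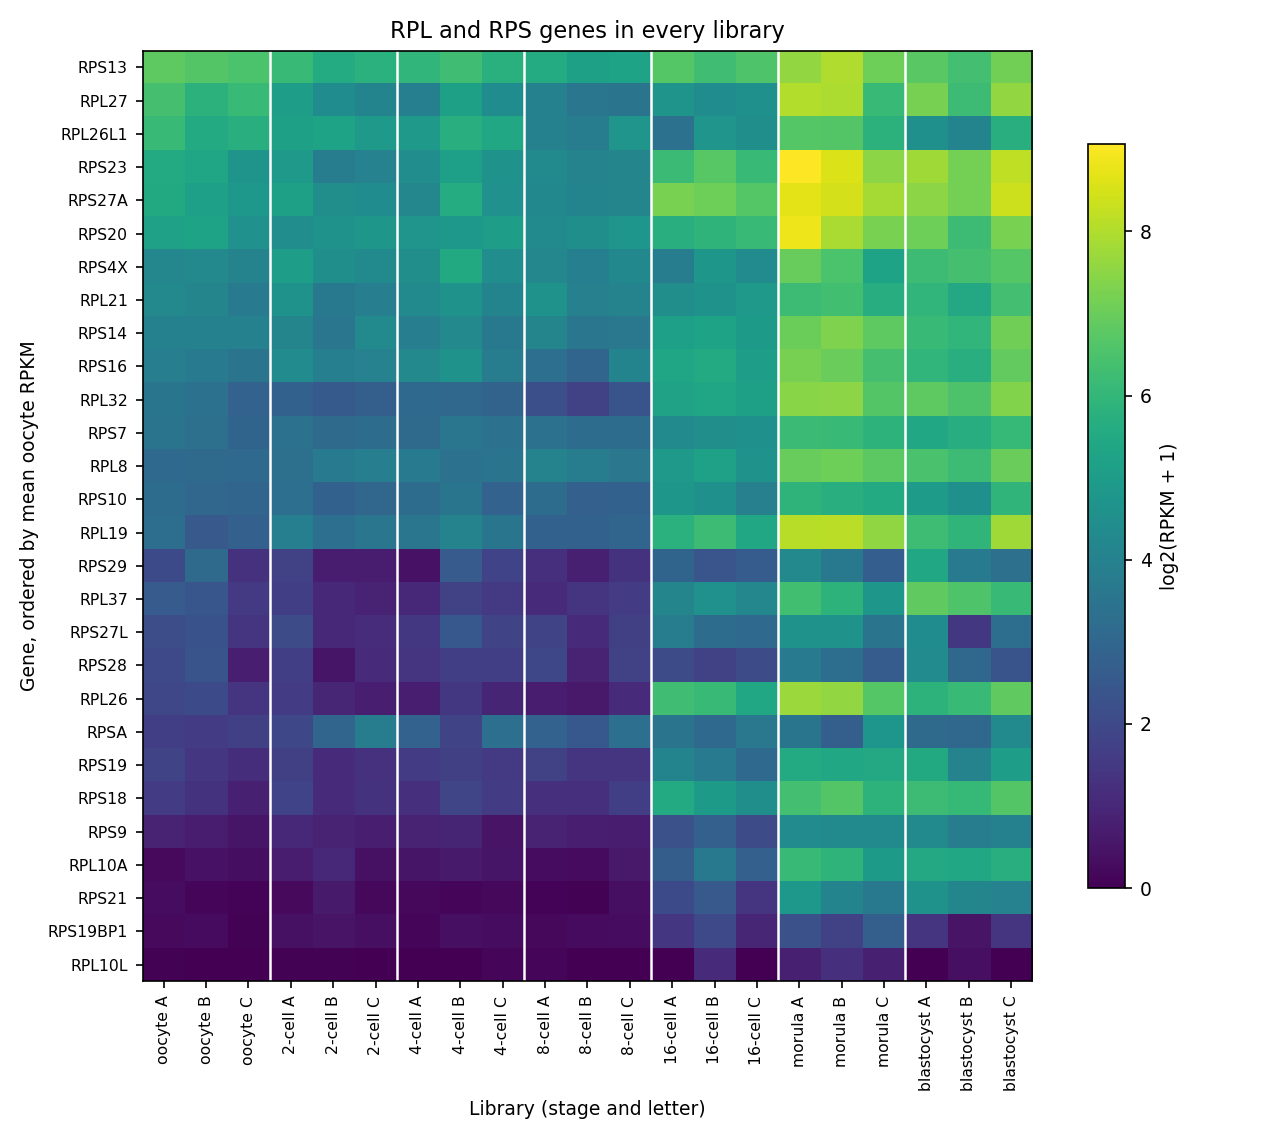
Level of 28 of the 31 genes (rows, ordered by mean oocyte RPKM) in the 21 libraries (columns, grouped by stage), as log2(RPKM + 1). Most rows turn to green and yellow (high) from the 16-cell stage on and are brightest in morula A and B. RPS13, RPL27 and RPL26L1 at the top are also green in oocytes, and RPL10L at the bottom stays dark in most libraries.

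All stages were tested in a single limma model on log2(RPKM + 1) over the 4253 genes that reached 1 RPKM in 3 or more libraries. Of the 31 rows 30 passed this filter and RPL10L did not. Calls needed an adjusted p (Benjamini-Hochberg, over all genes) below 0.05 and a log2 fold change of at least 1 in size. In limma's F test over the 7 stages all 30 had an adjusted p below 0.05, where 93.8% of all genes did. Among the 30, RPSA had the highest adjusted p of that test (0.0158).

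From the oocyte to the 8-cell stage 4 members fell, RPL27, RPL26L1, RPS13 and RPL32, and 0 rose (11 members had an unadjusted p below 0.05 in limma). The 4 are 13.3% of the members tested, against 3.48% of all genes called lower and 8.02% called higher. RPL27, a large-subunit protein encoded at 19:42699920-42702046 on the plus strand, had 82.4, 56.2 and 69.7 RPKM in oocytes, then 33.1, 20.2 and 16.2 (2-cell), 14.2, 34.2 and 20.4 (4-cell) and 14.8, 10.9 and 10.2 (8-cell). Every oocyte library lay above every later library up to the 8-cell stage. Its mean fell from 69.4 ± 13.1 RPKM in oocytes to 12 ± 2.49 in 8-cell embryos (log2 fold change, written log2 hereafter, -2.44, SE 0.48, adjusted p 0.00147 in limma with Benjamini-Hochberg adjustment). RPS13, of the small subunit (15:46919327-46922917, minus strand), had 113, 98 and 90.1 RPKM in oocytes, then 67.7, 47 and 54.3 (2-cell), 62.3, 76.9 and 52.7 (4-cell) and 47.1, 34.3 and 37.2 (8-cell). Oocytes again did not overlap with the 8-cell libraries (log2 -1.33, SE 0.34, adjusted p 0.00744). RPL32, of the large subunit (22:56323257-56326440, plus strand), had 10.6, 9.53 and 6.29 RPKM in oocytes, then 5.96, 4.86 and 5.67 (2-cell), 7.57, 7.43 and 6.47 (4-cell) and 3.69, 2.47 and 4.13 (8-cell). It fell from 8.8 ± 2.23 to 3.43 ± 0.856 RPKM (log2 -1.14, SE 0.32, adjusted p 0.0133). RPL26L1 fell too (log2 -1.6, SE 0.44, adjusted p 0.0115), and its values stand with those of RPL26 below. The calls of RPL26L1 and RPL32 were lost without oocyte A or 8-cell B (adjusted p up to 0.0623 and 0.0851), and the count was 2 without either of these libraries. The median member changed by -0.15 and the median gene by 0.15. Scaling the libraries raised the count of falls, to 8 with quantile normalization and 7 with median-ratio scaling. Calls over all genes moved the same way. Of all genes called, 69.7% were called higher in the main model, 46.4% with quantile normalization and 33.1% with median-ratio scaling.

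Step by step, little of this decline was called. From oocyte to 2-cell 1 member fell, RPL27 (log2 -1.59, SE 0.48, adjusted p 0.0374), against 0.4% of all genes, and 0 rose, against 4.37% (6 members had an unadjusted p below 0.05). The call of RPL27 was lost when a single oocyte library (each of the 3), 2-cell B or 2-cell C was left out (adjusted p up to 0.161), while 5 members fell with quantile normalization and 3 with median-ratio scaling. Of all genes called at this step, 91.6% were called higher in the main model, 57.4% with quantile normalization and 37.0% with median-ratio scaling. From 2-cell to 4-cell 0 members were called in limma and 0 had an unadjusted p below 0.05, with 0% of all genes called higher or lower. From 4-cell to 8-cell 0 were called and 3 had an unadjusted p below 0.05, against 0.588% of all genes called higher and 0.0941% called lower. At that step 27 of 30 members had a negative and 3 a positive log2 fold change, with a median of -0.23 against 0.00 for the median gene. Members whose libraries did not overlap were 6 lower and 0 higher, against 16.6% and 18.9% of all genes.

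From 8-cell to 16-cell 24 of the 30 members rose (80%) and 0 fell, against 19.4% of all genes called higher and 15.9% called lower. All 30 had a positive log2 fold change, with a median of 1.54 against -0.14 for the median gene. Members called were 6 of 9 with an RPL symbol and 18 of 21 with an RPS symbol. RPL10A, RPS19BP1, RPS21 and RPS9 reached 1 RPKM in 3 libraries only with the later stages counted, so their passing the filter rests on the stages in which they were high. Among the 26 that passed on the 12 libraries up to the 8-cell stage, 20 rose, where 14.8% of all such genes did. Without 16-cell C and morula C the count was 23 higher and 0 lower. RPS29 was then not called (log2 1.53, adjusted p 0.0518). The count was 16 with a pseudocount of 5, which shrinks the change of low genes.

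The largest rise was that of RPL26, given with its paralog below. RPS18, which sits in the head of the small subunit (23:41231650-41235816, minus strand), had 2.0, 1.53 and 0.751 RPKM in oocytes, then 2.55, 1.13 and 1.49 (2-cell), 1.39, 2.74 and 2.07 (4-cell) and 1.37, 1.32 and 2.17 (8-cell). It then had 45.1, 30 and 21.9 RPKM (16-cell), 81.4, 99 and 57.6 (morula) and 73.1, 66.8 and 99 (blastocyst). The 12 early libraries all lay below the 9 later ones, and the rise at the 16-cell stage was 19.9-fold in the means (log2 3.62, SE 0.34, adjusted p 1.54e-07). RPL37, a zinc-binding protein of the large subunit (20:33645923-33647843, plus strand), had 5.03, 4.36 and 1.89 RPKM in oocytes, then 2.25, 1.05 and 0.823 (2-cell), 1.03, 2.48 and 1.94 (4-cell) and 1.13, 1.56 and 2.02 (8-cell). Later it had 16.6, 22.8 and 17.2 RPKM (16-cell), 78.2, 56.8 and 26.8 (morula) and 116, 94.4 and 67.2 (blastocyst). The 16-cell libraries stood above every earlier library (log2 2.95, SE 0.39, adjusted p 6.09e-06). RPL32 went on to 36.5, 39.6 and 34.3 RPKM (16-cell), 176, 179 and 98.5 (morula) and 112, 91.5 and 163 (blastocyst). Its fall before the 8-cell stage was thus followed by a rise from 3.43 ± 0.856 to 36.8 ± 2.63 RPKM (log2 3.11, SE 0.32, adjusted p 3.32e-07).

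RPL19, a large-subunit protein that forms a bridge to the small subunit (19:39341278-39344166, plus strand), had 8.69, 4.85 and 5.82 RPKM in oocytes, then 13.9, 8.87 and 10.7 (2-cell), 10.7, 15.5 and 10.5 (4-cell) and 6.08, 6.06 and 6.71 (8-cell). The later libraries had 54.1, 73.2 and 42.2 RPKM (16-cell), 269, 277 and 189.9 (morula) and 75.5, 59.3 and 220.2 (blastocyst). Its rise at the 16-cell stage was 8.99-fold in the means (log2 2.95, SE 0.41, adjusted p 9.54e-06). RPL10A, the protein of the mobile stalk at which spent tRNA leaves (23:39288216-39290649, minus strand), had 0.183, 0.355 and 0.264 RPKM in oocytes, then 0.621, 1.09 and 0.333 (2-cell), 0.415, 0.566 and 0.426 (4-cell) and 0.23, 0.21 and 0.551 (8-cell). From the 16-cell stage on it had 5.33, 11.6 and 5.9 RPKM (16-cell), 68.5, 58.5 and 29.8 (morula) and 43.5, 41.2 and 52.1 (blastocyst). The early libraries held an estimated 22.2 to 159.8 reads of it, and the rise was called (log2 2.63, SE 0.31, adjusted p 1.53e-06). RPS21, of the small subunit (13:54184089-54184980, minus strand), had 0.244, 0.106 and 0.0723 RPKM in oocytes, then 0.181, 0.58 and 0.145 (2-cell), 0.149, 0.113 and 0.139 (4-cell) and 0.0702, 0.0334 and 0.304 (8-cell). Then it had 3.12, 4.75 and 1.6 RPKM (16-cell), 27.6, 16 and 11.6 (morula) and 24, 17.1 and 15.2 (blastocyst). With 1 to 31 reads in an early library, its differences among the early stages were not detectable at this depth, while the rise at the 16-cell stage was called (log2 1.81, SE 0.29, adjusted p 4.87e-05).

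RPL26, RPS18, RPL32, RPL37 and RPL19 had the 5 largest log2 fold changes of the 24, and the other members stood below them. RPS27A, made as a fusion of ubiquitin to a small-subunit protein, went from 16.8 ± 1.07 to 128 ± 24.4 RPKM (log2 2.84, SE 0.41, adjusted p 1.55e-05). RPS23, a protein of the decoding centre, went from 17.1 ± 1.97 to 81.5 ± 20.1 (log2 2.16, SE 0.42, adjusted p 0.000293), and RPS19, the gene most often mutated in Diamond-Blackfan anaemia, from 1.88 ± 0.441 to 11.9 ± 4.14 (log2 2.12, SE 0.34, adjusted p 4.08e-05). RPS16, RPS9, RPS10, RPS14, RPS20, RPS13 and RPS7 had log2 fold changes of 1.16 to 1.87, and RPS27L and RPS19BP1 stand with the paralogs below. RPL8, a protein close to the centre where peptide bonds form, was the smallest rise called (log2 1.07, SE 0.29, adjusted p 0.00422), and that call was lost without 8-cell C or 16-cell B. With quantile normalization the rises of RPL8 (log2 0.71), RPS13 (0.57, adjusted p 0.0676), RPS14 (0.98), RPS20 (0.90) and RPS7 (0.94) were not called. RPS29, a short zinc-binding protein with a gene span of 429 bases, was called (log2 1.52, SE 0.58, adjusted p 0.032) but not when 8-cell A, 8-cell B, 16-cell A or 16-cell C was left out (up to 0.0983).

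Members not called at this step were RPL21, RPL26L1, RPL27, RPS28, RPS4X and RPSA. RPS4X, a small-subunit protein whose gene lies on the X chromosome in mammals and on an unplaced scaffold in this table, had 17.5, 18.3 and 15.5 RPKM in oocytes, then 32.9, 22.1 and 18.9 (2-cell), 21.4, 44.6 and 20.9 (4-cell) and 17.3, 14 and 17.6 (8-cell). It had 13.2, 26.7 and 19.5 RPKM (16-cell), 124, 89.1 and 37 (morula) and 73.2, 83.5 and 102 (blastocyst), so the 16-cell libraries overlapped with the 8-cell ones (95% interval of the log2 fold change -0.65 to 1.08) and the level rose later. RPL27 stood at 24.6, 20.4 and 22.7 RPKM (16-cell), 262, 247 and 67.3 (morula) and 148, 73.5 and 194 (blastocyst). The 16-cell libraries of RPL27 lay above the 8-cell ones without overlap, but the change missed the threshold (log2 0.87, adjusted p 0.128, interval -0.13 to 1.88). Scaled to nuclear gene reads, an alternative added after the data were seen, that change was called in limma (log2 1.21, adjusted p 0.0299). RPL21 went from 18.2 ± 5.38 to 24.5 ± 3.77 RPKM (interval -0.29 to 1.16). These intervals reach past a log2 fold change of 1 for each of the 3.

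**Figure D3:**
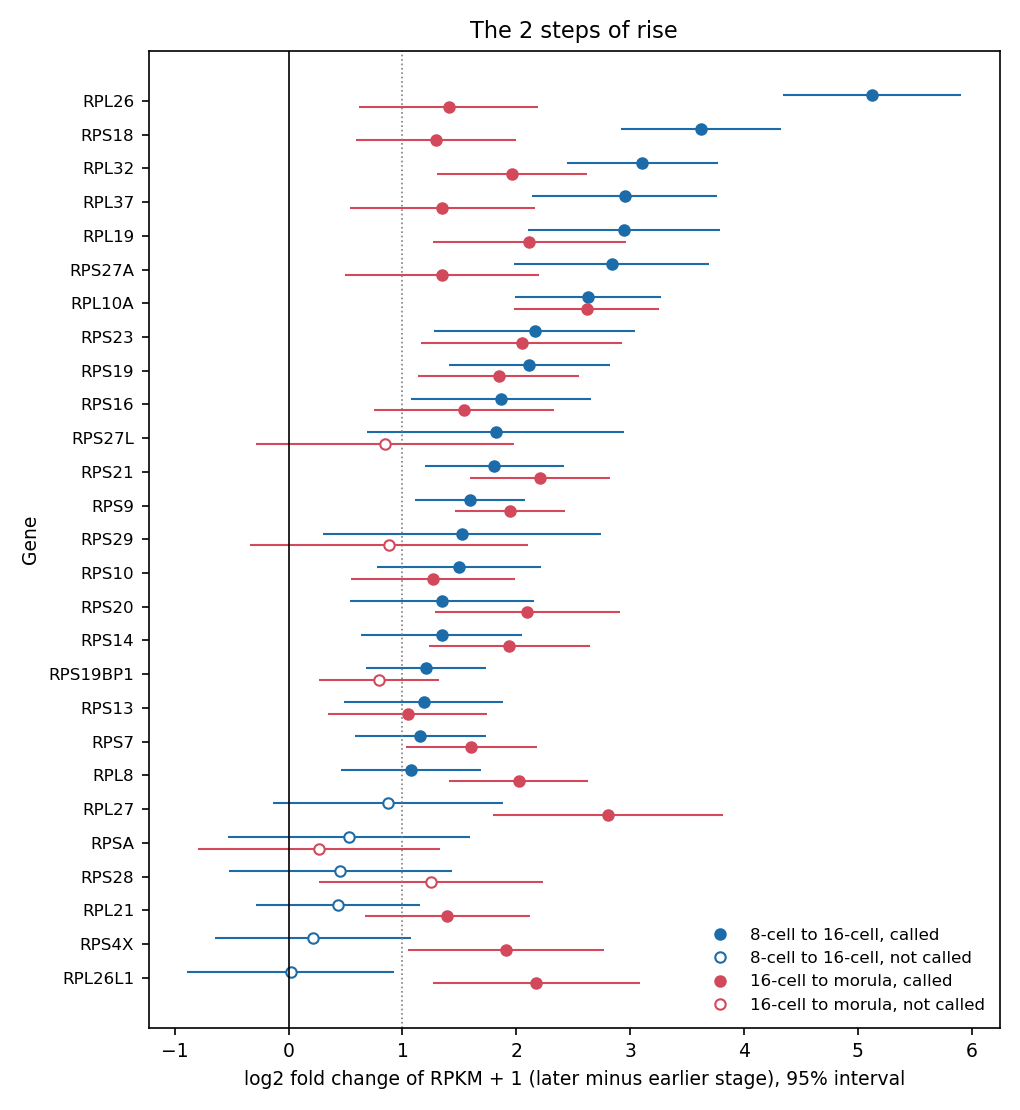
log2 fold change of RPKM + 1 with its 95% interval (x axis) for 27 of the 30 members tested (y axis), from 8-cell to 16-cell in blue and from 16-cell to morula in red; filled points were called, and the dotted line marks the threshold of 1. RPL26 has the largest blue value (5.13) and RPL27 the largest red one (2.81), and RPSA and RPS28 are open at both steps.

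The paralogs RPL26 and RPL26L1 parted in their courses at the 16-cell stage. RPL26 lies near the tunnel through which the new protein leaves the ribosome, and RPL26L1 is a near-identical protein from a gene on another chromosome. RPL26 (19:27715357-27719166, minus strand) had 2.85, 3.06 and 1.59 RPKM in oocytes, then 2.05, 0.956 and 0.696 (2-cell), 0.71, 1.76 and 0.912 (4-cell) and 0.596, 0.54 and 1.18 (8-cell). It had 77, 69 and 40.7 RPKM (16-cell), 209, 195 and 102 (morula) and 57.4, 67.3 and 115 (blastocyst). RPL26L1 (20:4781422-4787863, plus strand) had 67.3, 45.3 and 51.7 RPKM in oocytes, then 34.4, 37 and 28.9 (2-cell), 28.8, 50.1 and 41.5 (4-cell) and 14.8, 13.5 and 25.2 (8-cell), and 9.35, 25.3 and 21.9 RPKM (16-cell), 102, 97.5 and 55.3 (morula) and 22.7, 16.2 and 49.9 (blastocyst). RPL26L1 was thus high in oocytes, low at the 8-cell and 16-cell stages and high in morulae, while RPL26 was low in all 12 early libraries and high in all 9 later ones. Within the early libraries RPL26 had a lower mean at the 8-cell stage (0.772 ± 0.354 RPKM) than in oocytes (2.5 ± 0.794). Its libraries did not overlap between these stages, where 16.1% of all genes were lower without overlap. The main limma model did not call that fall. It was called with quantile normalization (log2 -1.26, adjusted p 0.00509), median-ratio scaling (-1.18, 0.0398), a pseudocount of 0.1 (-1.6, 0.0229) and without scaling to gene span (-1.43, 0.023). The other alternatives did not call it.

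Per length of gene span, RPL26L1 stood 23.6 ± 8.83 times as high as RPL26 in oocytes and 23.7 ± 1.99 times at the 8-cell stage, against 0.342 ± 0.209 times in 16-cell embryos, 0.511 ± 0.0287 in morulae and 0.357 ± 0.103 in blastocysts. Of the reads of both genes, without a correction for length, RPL26 made up 2.68 ± 1.05% in oocytes, 2.09 ± 1.13% in 2-cell, 1.57 ± 0.401% in 4-cell and 2.41 ± 0.22% in 8-cell embryos. From the 16-cell stage on it made up first 65.7 ± 15.7%, in morulae 53.7 ± 1.38% and in blastocysts 62.9 ± 7.21%. The 12 early libraries (1.27 to 3.83%) and the 9 later ones (52.1 to 83%) did not overlap, and this share within a library does not depend on how libraries are scaled. The pair was looked at with its values known, so the share is given without a test. RPL26 rose 80.6-fold in the means at the 16-cell stage (log2 5.13, SE 0.37, adjusted p 1.82e-08), and RPL26L1 did not change detectably (log2 0.02, adjusted p 0.973, interval -0.89 to 0.93). An early library held 97 to 571 reads of RPL26 and 4165 to 22861 of RPL26L1. How reads that match both genes were assigned is not given in the sources used here.

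**Figure D4:**
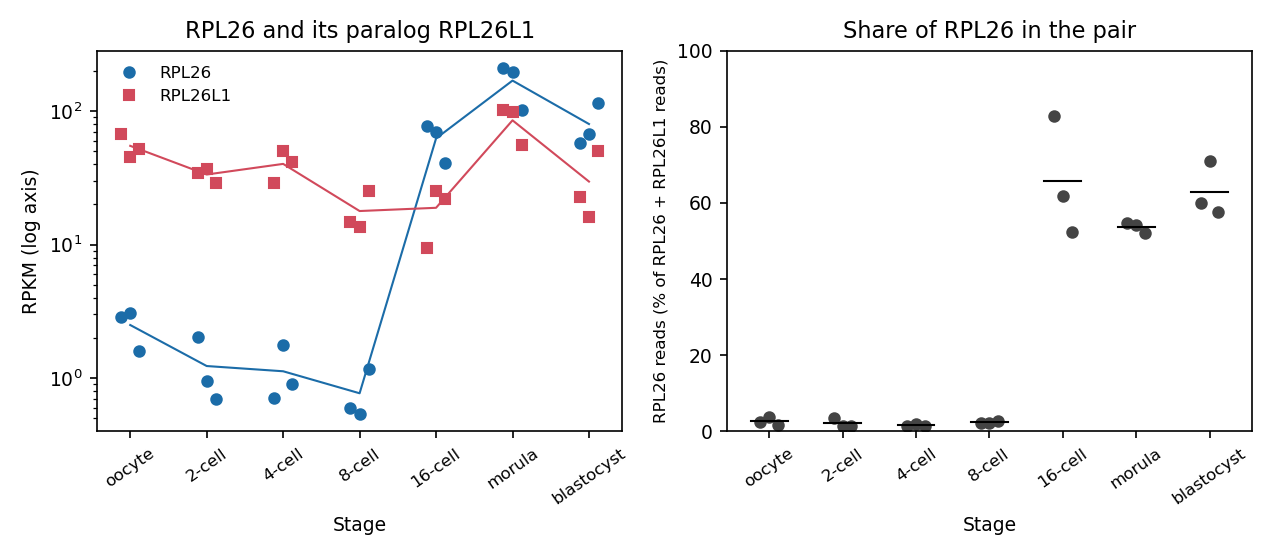
RPKM of RPL26 and RPL26L1 in each library by stage (left, log axis; lines join stage means) and the reads of RPL26 as a percentage of the reads of both genes (right; bars are means of 3). RPL26 lies under RPL26L1 up to the 8-cell stage and above it in every library from the 16-cell stage on, where its share is 52.1 to 83%.

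Between the 16-cell stage and the morula 25 of 30 members rose (83.3%) and 0 fell, against 11.4% of all genes called higher and 4.66% called lower. All 30 had a positive log2 fold change, with a median of 1.72 against 0.01 for the median gene, and the 9 RPL members were all called. This comparison shares its 16-cell libraries with the preceding stage comparison. Among the 29 members that passed the filter on the 15 libraries up to the 16-cell stage 25 rose, where 10.5% of all such genes did. The count was 26 without 16-cell C and morula C, and 16 with quantile normalization. RPL27 had the largest log2 fold change, from 22.5 ± 2.08 to 192 ± 108 RPKM (log2 2.81, SE 0.48, adjusted p 0.000524), although morula C (67.3) stood well below morula A and B (262 and 247). RPL10A rose again from 7.62 ± 3.48 to 52.2 ± 20.1 (log2 2.62, SE 0.31, adjusted p 1.65e-05), RPS21 from 3.16 ± 1.57 to 18.4 ± 8.28 (log2 2.21, SE 0.29, adjusted p 5.54e-05), RPL26L1 from 18.8 ± 8.4 to 85 ± 25.8 (log2 2.17, SE 0.44, adjusted p 0.00158) and RPL19 from 56.5 ± 15.6 to 245 ± 48.3 (log2 2.12, SE 0.41, adjusted p 0.00114). RPS4X rose here from 19.8 ± 6.75 to 83.3 ± 43.6 (log2 1.91, SE 0.41, adjusted p 0.00262) and RPL21 from 24.5 ± 3.77 to 66.9 ± 15.1 (log2 1.4, SE 0.35, adjusted p 0.00649).

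RPS20, a protein of the small-subunit head (14:58802155-58804778, plus strand), had 35.2, 37.5 and 22.8 RPKM in oocytes, then 20.7, 24.5 and 26.8 (2-cell), 25.3, 27.3 and 32.6 (4-cell) and 19.4, 22 and 26.3 (8-cell). It reached 50.3, 58.5 and 68.6 RPKM (16-cell), 459, 239.9 and 149 (morula) and 133, 74 and 151 (blastocyst). Its morula libraries spread widely but all lay above the 16-cell ones (log2 2.1, SE 0.39, adjusted p 0.000916). Morula C was the lowest of the 3 morula libraries for 27 of the 30 ribosomal protein genes, while 16-cell C was the lowest of its stage for 16. RPS13 had 101, 77.2 and 94.5 RPKM (16-cell), 195, 252 and 134 (morula) and 107, 80.8 and 141 (blastocyst). It rose from 91 ± 12.4 to 194 ± 59 (log2 1.05, SE 0.34, adjusted p 0.0282). That call was lost when 16-cell A, 16-cell B, morula A or morula B was left out (up to 0.139). It was also lost with quantile normalization (log2 0.40, adjusted p 0.286), median-ratio scaling (0.84, 0.0738) and scaled to nuclear gene reads (0.94, below the threshold of 1). Calls lost without single libraries were also those of RPL37 (16-cell A, morula A or B, up to 0.109), RPS27A (16-cell C, morula A or B, up to 0.103), RPL26 and RPS10 (16-cell C or morula A, up to 0.0585 and 0.0544).

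RPSA and RPS28 were called in none of the consecutive comparisons. RPSA, a small-subunit protein that is also known as a laminin receptor (22:12541215-12552936, plus strand, the longest span of the 31), had 2.18, 1.95 and 2.32 RPKM in oocytes, then 2.88, 6.79 and 12.8 (2-cell), 6.29, 2.6 and 8.85 (4-cell) and 6.19, 4.61 and 9.01 (8-cell). Later it had 10.3, 7.65 and 11.4 RPKM (16-cell), 10.6, 5.63 and 26.3 (morula) and 7.83, 7.28 and 18.6 (blastocyst). Its libraries scattered within most stages, from 2.88 to 12.8 at the 2-cell stage and from 5.63 to 26.3 in morulae, and morula C was the highest of its stage where most members were lowest. Its oocyte libraries nevertheless all lay below every later library, and the 8-cell mean was 3.07 times the oocyte mean. RPS28, near the channel where mRNA leaves the small subunit (7:93459032-93459840, minus strand), had 2.97, 4.13 and 0.696 RPKM in oocytes, then 2.22, 0.436 and 1.12 (2-cell), 1.6, 2.22 and 2.22 (4-cell) and 2.86, 0.834 and 2.35 (8-cell). It had 3.23, 2.34 and 3.32 RPKM (16-cell), 12.6, 8.67 and 5.28 (morula) and 19.8, 7.39 and 4.15 (blastocyst). The morula libraries lay above the 16-cell ones without overlap, but the change did not pass (log2 1.25, adjusted p 0.0578, interval 0.27 to 2.23). It did pass without 16-cell C and morula C (log2 1.61, adjusted p 0.0443), without morula C alone (log2 1.54, 0.0237), with the filter of 5 RPKM (0.043), with the replicate block (0.0371) and without oocyte C, blastocyst A or blastocyst C (0.0295 to 0.0426). RPSA rose from oocyte to 2-cell with the replicate block (log2 1.25, adjusted p 0.0408). From oocyte to 8-cell RPSA was not called in the main model. It was called higher there with the replicate block (log2 1.23, adjusted p 0.0252), without scaling to gene span (1.53, 0.0496) and without morula C (0.0489).

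From the morula to the blastocyst 5 members fell, RPL26L1, RPL19, RPS19BP1, RPS20 and RPL26, and 0 rose (9 members had an unadjusted p below 0.05 in limma). They are 16.7% of the members, against 25.3% of all genes called lower and 3.93% called higher. The median member changed by -0.42 and the median gene by -0.48. RPL26L1 went from 85 ± 25.8 to 29.6 ± 17.9 RPKM (log2 -1.6, SE 0.44, adjusted p 0.00577), RPL19 from 245 ± 48.3 to 118 ± 88.6 (log2 -1.27, SE 0.41, adjusted p 0.0158), RPS20 from 283 ± 159 to 119 ± 40.2 (log2 -1.15, SE 0.39, adjusted p 0.0215) and RPL26 from 169 ± 58.2 to 79.8 ± 30.6 (log2 -1.07, SE 0.37, adjusted p 0.0269). RPS19BP1 stands with the paralogs below. In RPL19, RPS20 and RPL26 the libraries of the morula and the blastocyst overlapped. These falls depended on the scaling of the libraries. Scaled to nuclear gene reads, an alternative chosen after the data were seen, 0 members fell and 1 rose, RPL37 (1.67, adjusted p 0.00483), and the median member changed by 0.38. With median-ratio scaling 0 fell and 12 rose, and with quantile normalization 0 fell and 1 rose. Calls over all genes moved the same way. Of all genes called, 13.4% were called higher in the main model and 39.4% scaled to nuclear gene reads. That share was 65.2% with median-ratio scaling and 52.0% with quantile normalization, where the median gene changed by 0.01 and -0.01. Mitochondrial reads, at 8.92 ± 5.31% of gene reads in morulae and 36.8 ± 7.96% in blastocysts, moved with this comparison, and their part in each fall was not tested beyond that scaling. The calls were also lost without blastocyst B (RPL19, RPL26, RPS19BP1, RPS20), blastocyst A (RPL19, RPL26), morula A (RPL26, RPS20), morula B (RPL26) or morula C (RPS19BP1), and the count of falls was 1 without blastocyst B, 3 without morula A, 9 without blastocyst C and 7 without 16-cell C and morula C, where RPS13, RPS23 and RPS27L were called and RPS19BP1 was not.

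Set end to end, the blastocyst stood above the oocyte in 25 of 30 members and below it in 1, against 19.8% of all genes called higher and 28.5% called lower. RPL10A, RPS21 and RPS9, which are among the 25, passed the filter only through the later stages in which they were high. The median member was higher by 2.5 and the median gene changed by -0.33. The largest differences were those of RPL10A, from 0.267 ± 0.0861 to 45.6 ± 5.76 RPKM (log2 5.2, SE 0.31, adjusted p 6.41e-11), RPS18, from 1.43 ± 0.632 to 79.6 ± 17 (log2 5.07, SE 0.34, adjusted p 3.24e-10), RPL26, from 2.5 ± 0.794 to 79.8 ± 30.6 (log2 4.49, SE 0.37, adjusted p 6.16e-09), RPL37, from 3.76 ± 1.65 to 92.5 ± 24.4 (log2 4.33, SE 0.39, adjusted p 1.66e-08) and RPS21, from 0.141 ± 0.0911 to 18.8 ± 4.63 (log2 4.09, SE 0.29, adjusted p 8.47e-10). RPSA (log2 1.84, SE 0.51, adjusted p 0.0035) and RPS28 (log2 1.57, SE 0.47, adjusted p 0.00612), called at no single step, were called over the whole interval, though RPS28 not without oocyte C or blastocyst A (up to 0.0566). RPL26L1 was the member called lower (log2 -1.0, SE 0.44, adjusted p 0.0472), with blastocyst C (49.9 RPKM) inside the range of the oocytes. That call held on the edge of the threshold and was lost without any oocyte, 2-cell or 4-cell library, 8-cell A or B, morula B or blastocyst A or B (up to 0.195), and scaled to nuclear gene reads the change was -0.09. Not called were RPL27, RPS13, RPS27L and RPS19BP1. RPS13 stood at 100.3 ± 11.6 and 109.5 ± 30 RPKM (interval -0.60 to 0.80), and its oocyte and blastocyst libraries overlapped, and RPL27 at 69.4 ± 13.1 and 139 ± 61 (interval -0.11 to 1.9). Scaled to nuclear gene reads all 4 were called higher, RPL27 by 1.83 (adjusted p 0.0013), RPS13 by 1.03 (0.00406), RPS27L by 1.89 (0.00417) and RPS19BP1 by 1.34 (0.000123), as they were with median-ratio scaling.

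RPL10L, RPS27L and RPS19BP1 lie outside the standard set. RPL10L is a copy of RPL10 without introns that is best known from the testis (10:63356000-63356645, plus strand). It had 0.0394, 0.010 and 0.010 RPKM in oocytes, then 0.0363, 0.0354 and 0.010 (2-cell), 0.010, 0.010 and 0.0811 (4-cell) and 0.0931, 0.010 and 0.010 (8-cell). That is 0 to 3 reads in an early library, where a count of 0 allows up to 3 reads. It had 0.010, 1.1 and 0.010 RPKM (16-cell), 0.729, 1.37 and 0.732 (morula) and 0.010, 0.309 and 0.010 (blastocyst), which is 0 to 29 reads a library (0.01 RPKM stands for 0 reads), and did not pass the filter. RPS27L, a paralog of RPS27 and a known target of p53 (10:56224290-56226387, minus strand), had 3.43, 3.82 and 1.59 RPKM in oocytes, then 3.18, 1.01 and 1.23 (2-cell), 1.75, 4.63 and 2.63 (4-cell) and 2.65, 1.16 and 2.3 (8-cell). It had 13.4, 8.22 and 7.61 RPKM (16-cell), 23.5, 23.4 and 10.2 (morula) and 20.1, 1.77 and 8.75 (blastocyst). All 16-cell libraries lay above the 12 early ones (log2 1.82, SE 0.54, adjusted p 0.00782). Blastocyst B stood far below the other blastocysts. RPS19BP1, the partner of RPS19 (5:109877072-109880297, minus strand), had 0.169, 0.195 and 0.0387 RPKM in oocytes, then 0.336, 0.406 and 0.294 (2-cell), 0.0997, 0.29 and 0.223 (4-cell) and 0.154, 0.21 and 0.236 (8-cell). It had 1.72, 2.98 and 0.962 RPKM (16-cell), 3.73, 2.48 and 5.75 (morula) and 1.56, 0.396 and 1.64 (blastocyst). It rose at the 16-cell stage (log2 1.21, SE 0.25, adjusted p 0.000571, not without 16-cell B) and fell at the blastocyst (log2 -1.18, SE 0.25, adjusted p 0.000958), where morula and blastocyst libraries did not overlap.

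Ribosomal components that carry other symbols were counted beside them. Of 4 such genes tested, RPLP0, RPLP2 and RACK1 among them (4 of 7 symbols on that list were found), 3 rose and 0 fell at the 16-cell stage, against 19.4% and 15.9% of all genes. At the morula 4 rose and 0 fell, against 11.4% and 4.66% of all genes. RACK1, a scaffold for signalling enzymes on the small subunit, had 0.852, 0.744 and 0.991 RPKM in oocytes, then 1.3, 1.28 and 1.0 (2-cell), 1.97, 1.44 and 1.07 (4-cell) and 1.62, 1.44 and 1.65 (8-cell). It had 31.9, 36.6 and 22.6 RPKM (16-cell), 142, 157 and 106 (morula) and 63.7, 84.5 and 256 (blastocyst). It rose at the 16-cell stage (log2 3.58, SE 0.38, adjusted p 5.09e-07) and at the morula (log2 2.13, SE 0.38, adjusted p 0.000714). At the 16-cell stage the calls of RACK1 and RPLP2 held with any single library left out. RPLP2, of the stalk that recruits elongation factors, fell from 5.19 ± 1.62 to 1.57 ± 0.773 RPKM up to the 8-cell stage (log2 -1.27, SE 0.35, adjusted p 0.0124, not without oocyte A or 8-cell B) and then rose to 11.3 ± 2.45 (log2 2.28, SE 0.35, adjusted p 2.72e-05) and 75.1 ± 24.7 (log2 2.6, SE 0.35, adjusted p 5.93e-05). RPLP0, the base of the same stalk as RPLP2, rose at the morula (log2 1.98, SE 0.33, adjusted p 0.00044). Its change from 8-cell to 16-cell was 0.40 (adjusted p 0.316), and the difference between these changes was not tested. Between morula and blastocyst 0 of the 4 were called in limma, against 3.93% of all genes called higher and 25.3% called lower, and 0 had an unadjusted p below 0.05. Scaled to nuclear gene reads RPLP0 (log2 1.05, adjusted p 0.00675) and RPLP2 (1.01, 0.0261) rose at that step, and with median-ratio scaling RPLP0 (1.65), RPLP2 (1.6) and RACK1 (1.15) did.

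Other mRNAs known for the pyrimidine start, most of them translation factors, were counted next. Of 10 tested (10 of 17 found), 2 rose and 2 fell at the 16-cell stage, against 19.4% and 15.9% of all genes, and 4 rose and 0 fell at the morula, against 11.4% and 4.66%. TPT1, a small protein of growing cells, went from 2.03 ± 0.584 to 53.7 ± 22.6 RPKM (log2 4.11, SE 0.31, adjusted p 1.91e-08), and the elongation factor EEF1A1 from 19.5 ± 1.16 to 46.7 ± 15 (log2 1.18, SE 0.43, adjusted p 0.024, lost when 8-cell A, 8-cell C, 16-cell A or 16-cell B was left out) and to 223 ± 32.8 in morulae (log2 2.27, SE 0.43, adjusted p 0.000996). EEF1B2, an exchange factor for EEF1A1, and the initiation factor subunit EIF3L fell at the 16-cell stage (log2 -1.46, SE 0.54, adjusted p 0.0267 and log2 -1.23, SE 0.47, adjusted p 0.0323), calls lost when 8-cell A, 8-cell B, 16-cell A or 16-cell B was left out and when scaled to nuclear gene reads. In morulae EEF1B2 (log2 2.02, SE 0.54, adjusted p 0.0101, not without 16-cell A or morula A), EEF1D (log2 1.97, SE 0.23, adjusted p 1.65e-05, past the filter only through the later stages) and the poly(A)-binding protein PABPC1 (log2 2.47, SE 0.41, adjusted p 0.00036) rose. At the blastocyst EEF1B2 (log2 2.66, SE 0.54, adjusted p 0.000601) and PABPC1 (log2 1.73, SE 0.41, adjusted p 0.00196) rose further, while the initiation factor subunits EIF3E (log2 -1.45, SE 0.41, adjusted p 0.00774) and EIF3H (log2 -1.12, SE 0.22, adjusted p 0.00049) fell, both not without blastocyst B and not when scaled to nuclear gene reads. The median log2 fold change of the 10 was 0.29 at the 16-cell stage and 0.88 at the morula, against 1.54 and 1.72 for the 30 members, and this difference was not tested.

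Chaperones of single ribosomal proteins and factors of late subunit maturation were tested in the same model. Of 9 tested (16 of 21 found), 3 rose and 2 fell at the 16-cell stage, against 19.4% and 15.9% of all genes. At the morula 0 were called in limma (2 had an unadjusted p below 0.05), against 11.4% of all genes called higher and 4.66% called lower. At the blastocyst 0 rose and 4 fell, against 3.93% and 25.3% of all genes. NOB1, the nuclease that makes the final cut of small-subunit RNA, rose from 0.523 ± 0.122 to 3.44 ± 1.78 RPKM (log2 1.47, SE 0.30, adjusted p 0.00046), with its partner PNO1 (log2 1.58, SE 0.28, adjusted p 0.000132) and the kinase RIOK2 (log2 1.87, SE 0.32, adjusted p 8.21e-05). NOB1 passed the filter only through the later stages. At the blastocyst NOB1 fell from 5.75 ± 0.793 to 1.23 ± 1.35 (log2 -1.76, SE 0.30, adjusted p 0.000138), PNO1 from 7.21 ± 0.942 to 1.02 ± 0.809 (log2 -2.09, SE 0.28, adjusted p 1.32e-05) and RIOK2 from 10.5 ± 1.16 to 2.3 ± 2.25 (log2 -2.0, SE 0.32, adjusted p 6.52e-05). Scaled to nuclear gene reads, with quantile normalization and with median-ratio scaling these 3 falls were called too. SBDS, which readies the large subunit for use, fell at the 16-cell stage (log2 -1.29, SE 0.41, adjusted p 0.0114, not without 16-cell B or when scaled to nuclear gene reads) and again at the blastocyst (log2 -1.86, SE 0.41, adjusted p 0.00114, not with median-ratio scaling). NMD3, which carries the large subunit out of the nucleus, fell at the 16-cell stage from 6.47 ± 0.337 to 1.01 ± 0.876 RPKM (log2 -1.98, SE 0.27, adjusted p 7.54e-06). It had risen from oocyte to 2-cell (log2 1.16, SE 0.27, adjusted p 0.00839), as had TSR1, a factor of late small-subunit maturation (log2 1.15, SE 0.26, adjusted p 0.00839), and both stood above the oocyte at the 8-cell stage (log2 1.13, SE 0.27, adjusted p 0.00502 and log2 1.16, SE 0.26, adjusted p 0.00382), where 4 members had fallen. None of these 4 calls held with oocyte C left out or with quantile normalization.

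Of 5 regulators tested (15 of 16 found), 4 rose at the 16-cell stage, the transcription factors MYC, MYCN, GABPA and YY1, and 0 fell, against 19.4% and 15.9% of all genes. MYC and MYCN passed the filter only through the later stages in which they were high, and the 10 regulators that did not pass were not tested. At the morula 2 fell, GABPA and TBPL1, and at the blastocyst 3 fell, MYC, GABPA and TBPL1, against 4.66% and 25.3% of all genes. MYC, a general activator of ribosome production, had at most 0.261 RPKM in the 12 early libraries and then 28.2, 24.4 and 8.98 RPKM (16-cell), 0.90, 9.5 and 20.9 (morula) and 0.124, 3.29 and 0.192 (blastocyst) (log2 3.96, SE 0.63, adjusted p 5.09e-05 from 8-cell to 16-cell). Its late libraries scattered. Without 16-cell C and morula C it fell from 16-cell to morula instead (log2 -2.61, adjusted p 0.00305), and its fall at the blastocyst (log2 -2.08, SE 0.63, adjusted p 0.0121) was not called without morula C or blastocyst A, nor scaled to nuclear gene reads, with quantile normalization, with median-ratio scaling or without 16-cell C and morula C. GABPA, the DNA-binding subunit of an ETS-family factor found at many ribosomal protein promoters, had 0.769, 0.826 and 0.676 RPKM in oocytes, then 1.02, 0.669 and 0.837 (2-cell), 0.808, 0.775 and 1.07 (4-cell) and 0.997, 1.07 and 1.84 (8-cell). It had 28.4, 18.7 and 7.85 RPKM (16-cell), 4.88, 7.05 and 7.37 (morula) and 0.294, 0.078 and 1.07 (blastocyst), a rise to the 16-cell stage (log2 2.92, SE 0.33, adjusted p 8.73e-07) followed by falls to the morula (log2 -1.23, SE 0.33, adjusted p 0.00936, not without 16-cell A or morula A) and to the blastocyst (log2 -2.37, SE 0.33, adjusted p 1.52e-05). YY1, which also binds many of these promoters, went from 1.18 ± 0.105 to 8.94 ± 4.15 RPKM (log2 2.09, SE 0.29, adjusted p 1.03e-05) and stood at 12.2 ± 2.55 in morulae. In 16-cell C, MYC, GABPA and YY1 were each lower than in 16-cell A and B. MYCN rose from 0.0174 ± 0.00638 to 4.21 ± 2.94 RPKM (log2 2.21, SE 0.42, adjusted p 0.000249). TBPL1, a relative of the TATA-binding protein, went from 168, 147 and 141 RPKM (8-cell) to 66.1, 62.8 and 108 RPKM (16-cell), 7.26, 16.8 and 64.9 (morula) and 0.469, 0.149 and 1.16 (blastocyst). It fell at the morula (log2 -1.86, SE 0.50, adjusted p 0.0107, not without morula A) and at the blastocyst (log2 -3.79, SE 0.50, adjusted p 1.08e-05). Without 16-cell C and morula C it was called lower at the 16-cell stage too (log2 -1.22, adjusted p 0.00512). Whether any of these factors acts on the ribosomal protein genes was not measured here.

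**Figure D5:**
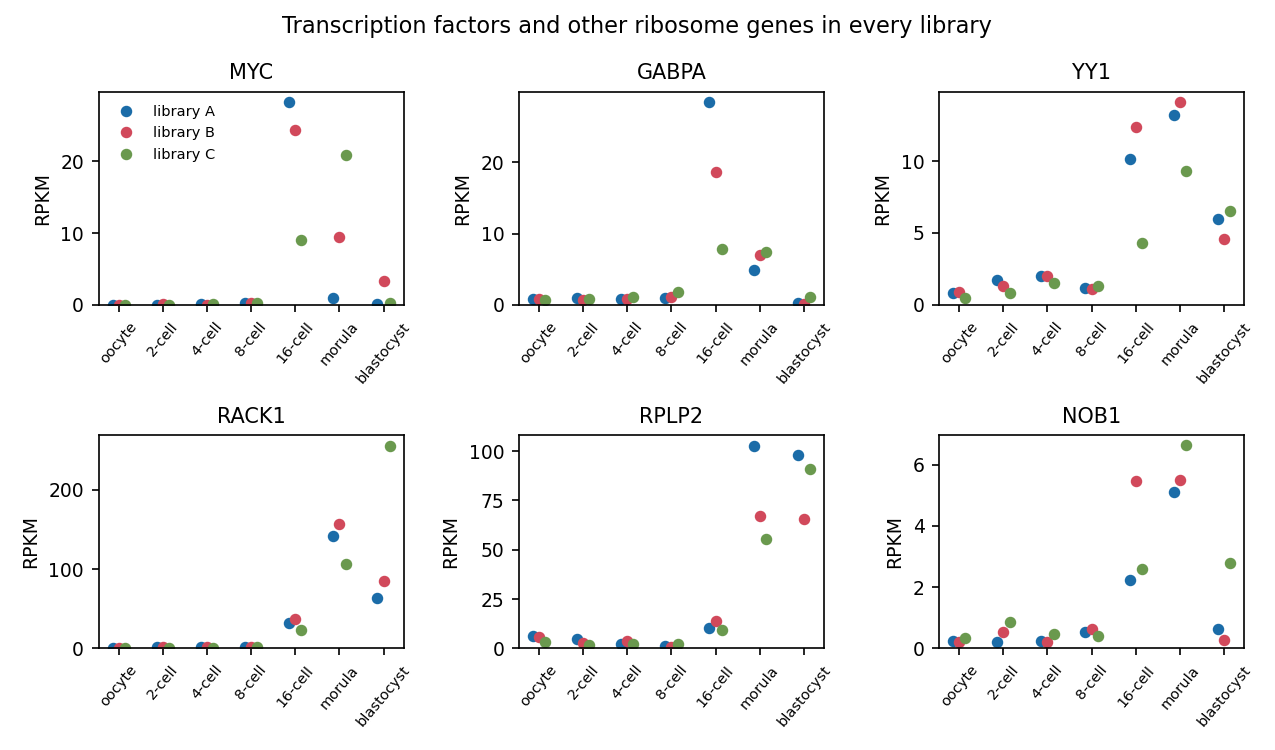
RPKM (y axis) of MYC, GABPA, YY1, RACK1, RPLP2 and NOB1 in each of the 21 libraries by stage (x axis), with the letter of the library in colour; the 6 genes were picked for display after their values were seen. RPLP2 has 0.884 to 6.49 RPKM up to the 8-cell stage, and GABPA is highest in 16-cell A (28.4) while RACK1 is highest in blastocyst C (256).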

How the data were processed

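RNA-seq of 21 libraries (7 stages, 3 each) was analysed from a single table of RPKM values that the authors deposited. Per the submitters' processing notes the tools were FastQC, STAR 2.5.3a and Partek, while build, annotation and counting rule were not given in the sources used here, and coordinates are the table's own. To each RPKM value the authors added 0.01, and gene length in it is the whole span, introns included. Values below 2000 reads could be looked at in 27 members. In 20 of these at least 90% were whole reads. The other 7, RPL10A, RPL19, RPS23 and RPSA among them, had more fractional ones, so reads that match several places may have been shared out. RPL26L1, RPS13, RPS20 and RPS4X had no values that low and were not looked at. Levels were tested with limma 3.58.1 in R 4.3.3 (trend, robust, two-sided) on log2(RPKM + 1), in a single model of all stages over genes that reached 1 RPKM in 3 or more libraries. Fold changes on this scale understate the change of low genes. Shares and read numbers were computed in Python 3.11.15 from the steps of the low values, which give each library's depth, and percentages of reads cover counting of reads, not of molecules. The limma script was tested on simulated data. All 31 symbols matched the RefSeq gene table.

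The members and gene lists were chosen with earlier results of these data known. Values in every library are given for up to 5 called rises and 5 called falls of largest size in each stage comparison, for members called in no consecutive comparison and for paralogs outside the standard set. Other pathway genes are given as counts by list, with values for some of those called. Alternatives were pseudocounts of 0.1 and 5, no filter, a filter of 5 RPKM, quantile normalization, median-ratio scaling, values scaled to depth but not to gene span (RPM), a replicate block, the libraries without 16-cell C and morula C, and each library left out in turn. Scaling to nuclear gene reads was added after the data were seen. The labels do not say that libraries of a letter were paired, so the main model held no pairing. No 2 libraries of a stage agreed within sampling noise, so none were merged. Some genes are counted but not reported here by name and not drawn.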

Additional observations from a re-analysis of the deposited data

How the results depend on the processing

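RPKM is a share of each library, and the median gene itself moved by more than 0.1 on the log2 scale in several comparisons (0.19 from oocyte to 2-cell, -0.14 from 8-cell to 16-cell, -0.48 from morula to blastocyst, 0.15 from oocyte to 8-cell and -0.33 from oocyte to blastocyst). Depth limits the members with few reads before the 16-cell stage (RPL10L, RPS21, RPS19BP1, RPS29, RPS28 and RPL10A). RPS29 had 7 to 157 and RPS28 21 to 156 reads in an early library, while RPS9, also low in RPKM, had 104 to 394. The rise at the 16-cell stage gave 16 (pseudocount of 5) to 25 members higher over all alternatives and 22 to 24 with a library left out. That at the morula gave 16 (quantile normalization) to 26, and 20 to 26 with a library left out. At both, 0 members fell under any alternative. Where counts of members moved by over 1.5 times the cause was not tested. Calls over all genes moved with the scalings too, as given with the stage comparisons above.

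From oocyte to 2-cell the count higher was 0, and 1 with a pseudocount of 0.1, with the replicate block and with RPM. The count lower was 1, and 0 with the filter of 5 RPKM, 5 with quantile normalization, 3 with median-ratio scaling and 0 to 1 with a library left out. From 4-cell to 8-cell quantile normalization gave 1 lower against 0. From morula to blastocyst the count higher was 0, and 1 with quantile normalization, 12 with median-ratio scaling, 1 scaled to nuclear gene reads and 0 to 1 with a library left out. The count lower was 5, and 0 under each of these 3 scalings and 1 to 9 with a library left out. From oocyte to 8-cell the count higher was 0, and 1 with a pseudocount of 0.1, 1 with the replicate block, 2 with RPM and 0 to 1 with a library left out. The count lower was 4, and 8 with quantile normalization, 7 with median-ratio scaling and 2 to 5 with a library left out. From oocyte to blastocyst the count lower was 1, and 0 with a pseudocount of 5, with no filter, with median-ratio scaling, with the replicate block, with RPM and scaled to nuclear gene reads, and 0 to 1 with a library left out.

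Some genes called in the main model or with median-ratio scaling changed sign from morula to blastocyst. With that scaling the change turned positive for RPL10A (1.28), RPL19 (0.14), RPL21 (1.28), RPL26 (0.34), RPL32 (1.11), RPL8 (1.04), RPS20 (0.26), RPS7 (1.07), RPS9 (1.10) and RACK1 (1.15). Sign changes of genes called in neither are not listed. The median member changed by -0.42 in the main model and by 0.97 with that scaling.

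The correlation of the deviations of libraries of a letter ran from -0.410 to 0.318 over the consecutive comparisons, and was highest from 16-cell to morula (B 0.318, C 0.311). With 3 libraries a stage this cannot decide whether a letter stands for a batch or a pairing, which the labels do not say. The replicate block gave 24 members higher at the 16-cell stage (24 without it) and 26 at the morula (25 without it, RPS28 being added). It is no test of pairing.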

Other observations

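The 8 RPS6K rows, which encode kinases named after the ribosomal protein S6 that they phosphorylate, were all found in the table, and 0 of them passed the filter of 1 RPKM in 3 libraries, so they were not tested.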
